A study of Rattus norvegicus with 2 samples.

Results

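The corticotropin-releasing hormone (CRH) and urocortin system was described through every probe of 7 genes on a rat expression array: the ligands Crh, Ucn, Ucn2 and Ucn3, the binding protein Crhbp, and the receptors Crhr1 and Crhr2. Members were chosen by gene name among the non-control probes, which gave 10 of 30367 probes and 7 of 17573 named genes. Both arrays held total RNA of male Sprague Dawley rats aged 12 weeks, from tissue labelled as the paraventricular nucleus of the hypothalamus. In the control group the mother had received vehicle, and in the dexamethasone group the mother had received the synthetic glucocorticoid dexamethasone at 200 µg/kg in the third trimester. No allele, transgene or later treatment is named for either group, and the sources used here do not state whether RNA of several animals was pooled for an array. There was 1 array per group, so no difference between the groups has a replicate check and none was tested. The arrays shared a slide, and position on the slide and group cannot be told apart.

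CRH is made by parvocellular neurons of the paraventricular nucleus and drives release of adrenocorticotropic hormone from the pituitary. Glucocorticoids restrain it through negative feedback. The urocortins are related peptides: urocortin binds both receptors, whereas urocortin 2 and urocortin 3 prefer CRHR2. CRH-binding protein sequesters CRH and urocortin, and both receptors couple mainly to Gs and cyclic AMP. Crh and Crhbp are also expressed in cortex, hippocampus and amygdala, and Ucn is best known from the Edinger-Westphal nucleus of the midbrain.

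The probes that carry the measurements are 60-base oligonucleotides, shown here so that the measured stretch of each transcript can be seen. The last 30 bases of each probe that the values below turn on are given. Whether a probe lies over coding or untranslated sequence was not looked up. The capitals mark the polyadenylation signal AATAAA, which only the Ucn probe held among the 10 probes.
Ucn, A_64_P058336, last 30 bases: ctctgactggatattttttAATAAAactgc
Crh, A_64_P116972, last 30 bases: tgaatcaactttttcttgtaaatgtttcaa
Crh, A_43_P12478, last 30 bases: caaaacagcgttatttgtattgttcacgct
Crhbp, A_44_P104054, last 30 bases: tgaggatggtctccagtggaaaacacatga
Crhr1, A_64_P012770, last 30 bases: ctacttcaactcttttctggagtcctttca
Crhr2, A_64_P079538, last 30 bases: gctgcaactcatcgaccacgaagtgcatga
Ucn3, A_64_P023122, last 30 bases: caaggccaagaatttgcgagccaaggcagc

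None of the 10 probes shared a run of 20 bases, on either strand, with any other probe of the array. In the rn4 assembly the Ucn probe lay at chr6:25217558-25217617 on the plus strand. The Crh probes lay at chr2:104764051-104764110 and chr2:104764253-104764312 on the minus strand, and the Crhbp probe at chr2:25802015-25802074 on the minus strand. The receptor probes lay at chr10:93353354-93353413 (plus strand, Crhr1) and chr4:83851526-83851585 (minus strand, Crhr2). The Ucn3 probe lay at chr17:77488369-77488428 on the plus strand. Another Crhr2 probe, A_64_P079543, had 38 of its 60 bases placed (chr4:83839822-83839859).

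Values given as signals are the processed intensity of the scanner software. Differences are dexamethasone minus control in log2 after each array was scaled to its 75th percentile (1404 for control and 1480 for dexamethasone). A gene was given the value of its brightest probe among those well above background on both arrays, and 2-fold was the size rule for calling a difference, not a test. Over the 14175 genes measured on both arrays, 3.37% were higher by 2-fold or more after dexamethasone and 2.38% were lower by that much, with a median difference of 0.01. The share past 2-fold either way depended on brightness. It was 8.93% for a mean signal below 30, 10.8% from 30 to 100, 6.43% from 100 to 500 and 3.53% at 500 or more. Of the 7 members 6 were measured on both arrays: 3 (Ucn, Crhbp and Crh) were higher by 2-fold or more, 0 were lower by 2-fold or more and 3 lay within 2-fold, with a median of 1.02. At 4-fold, where 0.832% of genes were higher, 2 members (Ucn and Crhbp) were higher; Crhbp fell under 4-fold with normexp (2.29-fold) and without background correction (2.34-fold). In bulk tissue, fewer cells of a type and less RNA per cell cannot be told apart.

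**Figure D1:**
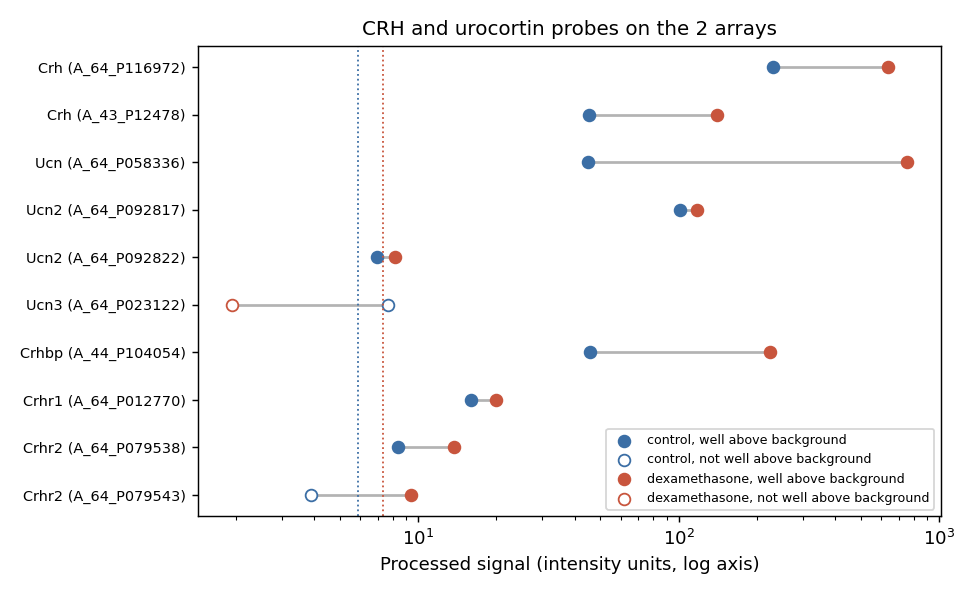
Processed signal (intensity units, log axis) of the 10 CRH and urocortin probes in the control array (blue) and the dexamethasone array (red), with open circles for probes not well above background and dotted lines at the lowest signal called well above background in each array. Ucn runs from 45.1 to 753 and Crhbp from 45.6 to 224, while both Ucn2 pairs and the Crhr1 pair lie close together.

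Among the ligands, Ucn, which encodes urocortin, differed most. Its control signal was 45.1 and its dexamethasone signal 753. After scaling this was a 15.8-fold excess in the dexamethasone array, or a log2 difference of 3.99. Ucn was the 20th of 14175 genes by the size of its excess. The share of probes dimmer than the Ucn probe was 37.5% on the control and 67.5% on the dexamethasone array. The probe was spotted 1 time, so its error is that of the scanner software, 4.74 on the control and 75.3 on the dexamethasone signal, or 0.21 on the log2 difference. The brightness was spread over the spot: its pixels had a median of 795.5 against a mean of 815 in the dexamethasone array, and 102 against 105 in the control. The local background was 65.5 and 62.0. With normexp background correction the excess was 7.27-fold (2.86), and without background correction 7.33-fold (2.87).

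Crh, the hypothalamic releasing hormone of the stress axis, was higher on both of its probes. The brighter probe had a control signal of 230.2 and a dexamethasone signal of 636, a 2.62-fold excess (1.39, software error 0.20). This placed Crh 264th among 14175 genes by the size of its excess. The dimmer probe was spotted 10 times on each array. In the control array 1 spot carried an outlier mark and was left out, and the other 9 ran from 37.2 through a median of 46.6 to 50.4 (mean 45.6 ± 4.10, SD over spots). In the dexamethasone array the 10 spots ran from 127.7 through a median of 141 to 154 (mean 140.1 ± 8.05). The spot values of the arrays did not overlap, and all 9 usable spot pairs were higher in the dexamethasone array. For probes with repeated spots and a mean signal from 30 to 100, the median spot SD of the log2 difference was 0.125. How many other such probes had spots that did not overlap was not counted. Repeated spots are not replicates of a group.

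The mean difference of the dimmer Crh probe was 1.55, with spot pairs from 1.34 to 1.71 and an SD of 0.15. The probes thus differed from each other by about the SD of the repeated spots. That spread describes repeated spots of 1 hybridisation and says nothing of the spread between animals. The dimmer probe fell under 2-fold with normexp correction (0.83) and without background correction (0.83), while the brighter stayed past it at 1.12 and 1.16. In raw pixels the dimmer probe averaged 106 for control and 199 for dexamethasone, beside local backgrounds of 65.3 and 61.5.

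**Figure D2:**
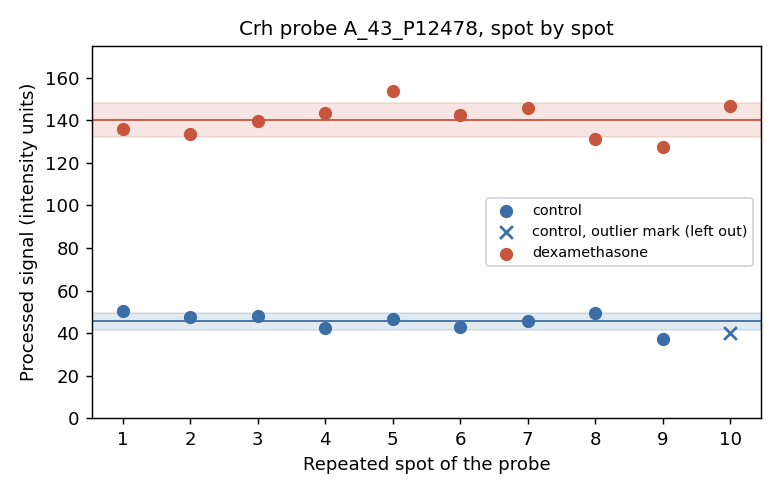
Processed signal (intensity units) of each of the 10 repeated spots of the Crh probe A_43_P12478 in the control (blue) and dexamethasone (red) arrays; lines are means, bands are 1 SD over spots, and the cross is a control spot left out for its outlier mark. All dexamethasone spots (127.7 to 154) lie above all control spots (37.2 to 50.4 among those used).

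The remaining urocortins did not pass 2-fold. Ucn2, encoding urocortin 2, had a control signal of 102 and a dexamethasone signal of 118 on its brighter probe (rn4 chr8:114004791-114004850, plus strand), a difference of 0.14 with a software error of 0.21. Its other probe (chr8:114005306-114005365, plus strand) read 6.96 and 8.20, close to the lowest signals called well above background (5.86 for control and 7.31 for dexamethasone), and gave 0.16 with an error of 0.44. Both Ucn2 differences were smaller than their errors. Ucn3, encoding urocortin 3, was not well above background on either array. It read 7.64 on the control array. On the other array the scanner software had put a surrogate value of 1.94 in place of its signal, so no fold is given.

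Crhbp, which encodes the secreted binding protein for CRH and urocortin, was higher in the dexamethasone array. Its control signal was 45.6 and its dexamethasone signal 224, a 4.66-fold excess (2.22, software error 0.21). Crhbp was 93rd of 14175 genes by the size of its excess. The share of probes dimmer than it was 37.6% on the control and 54.1% on the dexamethasone array. Its pixel median was 95.0 for control and 232 for dexamethasone, beside a local background of 63.0 on the control array. With normexp correction the excess was 2.29-fold and without background correction 2.34-fold, past 2-fold in both cases.

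The receptors were dim on both arrays and lay within 2-fold. Crhr1, the main CRH receptor of the pituitary and forebrain, read 16.0 for control and 19.9 for dexamethasone, a difference of 0.24 with a software error of 0.31. Crhr2, the receptor preferred by urocortin 2 and urocortin 3, read 8.41 and 13.8 on its brighter probe, a difference of 0.64 with an error of 0.37. Its other probe was not well above background for control (3.87) but was for dexamethasone (9.38). After scaling, the dexamethasone value was 1.52-fold the lowest signal called well above background in the control array. That is a lower bound on its fold over control. With normexp correction the differences were -0.01 for Crhr1 and -0.04 for Crhr2, and without background correction they were -0.02 and 0.05. Under the other 6 ways of treating the values both receptors stayed above 0 and within 2-fold.

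**Figure D3:**
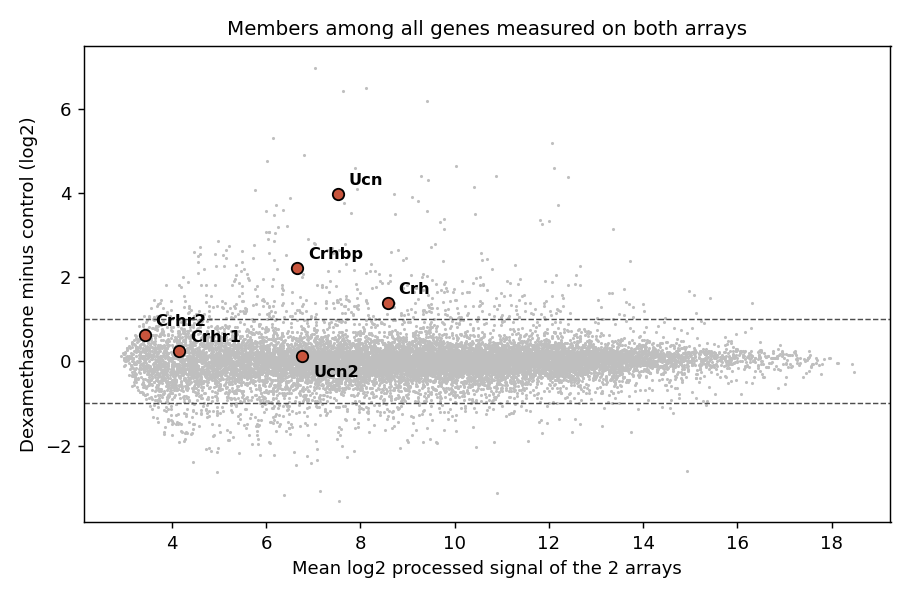
Difference between the arrays (log2, dexamethasone minus control) against the mean log2 processed signal for all 14175 genes measured on both arrays (grey) and the 6 measured members (red); dashed lines mark 2-fold. Ucn (3.99), Crhbp (2.22) and Crh (1.39) lie above the upper line, and Crhr2, Crhr1 and Ucn2 lie between the lines.

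The choice of background handling moved the members more than the choice of scaling. Under 8 other ways of treating the values, Ucn ranged from 2.86 to 4.01, Crhbp from 1.20 to 2.26 and the brighter Crh probe from 1.12 to 1.41, all past 2-fold. The lowest of each range came from normexp correction. Under the same settings Ucn2 ranged from 0.05 to 0.18 on its brighter probe.

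**Figure D4:**
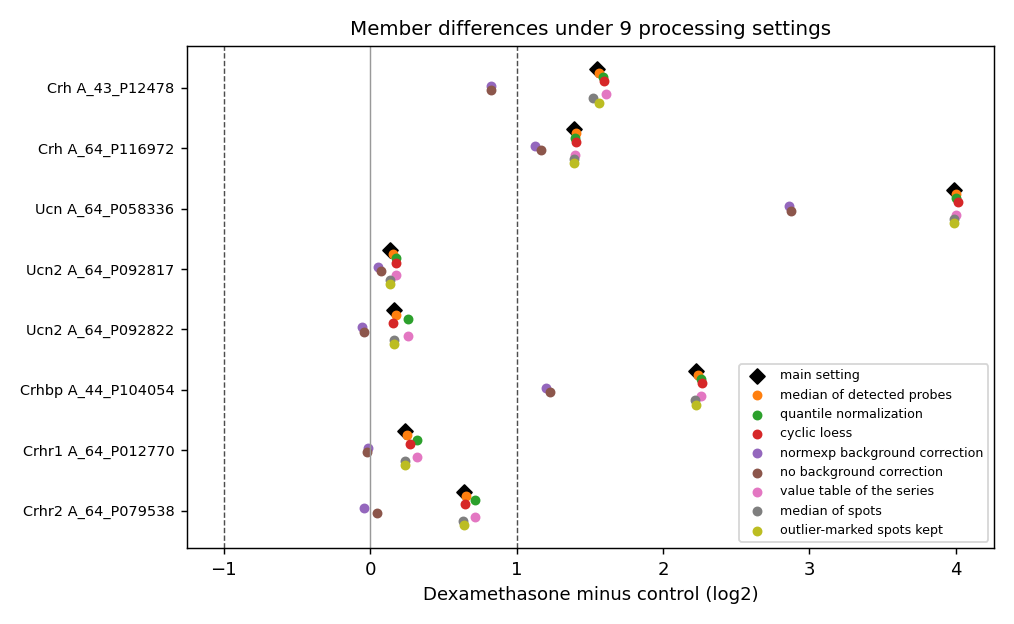
Difference (log2, dexamethasone minus control) of the 8 member probes measured on both arrays under the main setting (black diamonds) and 8 alternatives (coloured dots); dashed lines mark 2-fold. The Ucn, Crhbp and brighter Crh (A_64_P116972) points stay right of the 2-fold line, and the dimmer Crh probe crosses it at 0.83 with normexp or no background correction.

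A promoter sequence from RefSeq (GRCr8, 250 bases before to 50 after the annotated start) was matched for 6 of the 7 members, with Crh unmatched. The cyclic AMP response element TGACGTCA, the site through which the kinase cascade below the receptors acts on many peptide genes, was searched on both strands. Of the 6 matched members only Ucn held it, beginning 110 bases before the start site. The Crh promoter could not be searched. Of all 33469 promoters of that length 1.83% held the element. Its core TGACG, which TGACGTCA contains, was present in 4 of the 6 matched members and in 21.2% of all promoters. The hexamer TGTTCT of the glucocorticoid response element, also searched on both strands, was in 0 of the 6 and in 20.7% of all. The 250 bases before the Ucn start (GRCr8 chr6:30957836-30958085, plus strand) are shown because Ucn differed most, with TGACGTCA in capitals. A match is a description of these letters, and binding was not measured.
Ucn promoter: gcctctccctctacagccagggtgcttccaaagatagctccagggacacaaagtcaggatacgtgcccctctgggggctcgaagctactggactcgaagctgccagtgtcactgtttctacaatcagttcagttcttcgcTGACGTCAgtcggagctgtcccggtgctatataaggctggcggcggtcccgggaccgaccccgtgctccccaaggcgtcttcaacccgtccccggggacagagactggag

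Genes that act below the CRH receptors passed 2-fold upward about as often as genes in general. Of 34 measured genes of G proteins, adenylyl cyclases, protein kinase A and cyclic AMP-responsive transcription, 1 passed 2-fold upward and 0 downward, beside 3.37% and 2.38% of all genes, with a median of 0.02 against 0.01 over all genes. That gene was Adcy1, a calcium-stimulated adenylyl cyclase of neurons, with signals of 55.4 and 134 (1.20, and 0.64 with normexp correction). The lowest gene values, by the brightest probe, were those of the cyclases Adcy8 (2464 and 1440, -0.85) and Adcy7 (-0.75) and of Rapgef3, a cyclic AMP-activated exchange factor (-0.70). Crtc3, on the same list, was at 0.26 by its brightest probe (33.7 and 42.4) and at -1.22, past 2-fold, by another. Adcy9, another cyclase, was at 0.02, Prkacb, a catalytic subunit of protein kinase A, at 0.03, and Crtc1, a coactivator of CREB, at -0.02. None of 6 receptor kinases and arrestins, which desensitise the receptors, passed 2-fold (median -0.09): Grk3, a kinase known to act on CRHR1, was at 0.01, Grk2 at 0.12 and Grk6 at -0.19. None of 11 genes that process or store propeptides passed it either (median 0.13), with the convertases Pcsk1 at 0.07 and Pcsk2 at -0.12 and the convertase inhibitor Pcsk1n at -0.05.

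A list of transcriptional regulators and feedback genes linked to CRH neurons included several past 2-fold. These were read in bulk tissue, and which cells carried the differences was not tested. Of 21 measured genes 5 passed 2-fold upward and 0 downward, beside 3.37% and 2.38% of all genes, with a median of 0.27 against 0.01. Nr3c2, the mineralocorticoid receptor, read 804 and 3925 (2.21), and Fkbp5, a co-chaperone that dampens glucocorticoid receptor signalling, read 1425 and 3815 (1.34). The activity-induced genes Egr1 and Nr4a1, the latter an activator of the Crh gene, were at 1.35 and 1.23. Nr4a3, a related nuclear receptor, gave 1.75 by its brightest probe and -0.62 by another. Nr4a2 was lower within 2-fold (7031 and 5036, -0.56), and Fos was at 0.54. Of the 21 genes 17 were above 0 and 4 below. Tsc22d3, a glucocorticoid-induced leucine zipper gene, was at -0.0070 and the co-chaperone Fkbp4 at 0.03. The listed transcription factors Sim1 (-0.31), Pou3f2 (0.24) and Arnt2 (0.27) lay within 2-fold. Otp was not well above background for control.

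Other peptides of the stress axis differed in both directions. Of 16 measured peptide genes 6 passed 2-fold upward and 3 downward, beside 3.37% and 2.38% of all genes, with a median of -0.14. Those with the largest differences were Nts, encoding neurotensin (259 and 1136, 2.06), Avp, encoding vasopressin, which acts with CRH on the pituitary (3464 and 970.3, -1.91), Cartpt, encoding the CART peptide (575 and 2279, 1.91), and Npy, encoding neuropeptide Y (3085 and 11754, 1.85). Agrp, Adcyap1 and Pomc, encoding agouti-related peptide, PACAP and proopiomelanocortin, were at -0.07, -0.21 and 0.24. Of 14 measured receptors of the axis 3 passed 2-fold upward and 1 downward, beside the same shares of all genes (median 0.12, but -0.03 with normexp correction). Adra1d, an alpha-1 adrenergic receptor, read 693 and 3943 (2.43), Grin2b, a glutamate receptor subunit, was at 1.22 (0.70 with normexp correction) and Mc4r, a melanocortin receptor, at 1.20 (0.40), while Mc3r, its relative, was 2.01-fold lower (-0.71 with normexp correction). Avpr1b and Mc2r, the vasopressin and corticotropin receptors known from pituitary and adrenal, did not rise well above background on the arrays.

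**Figure D5:**
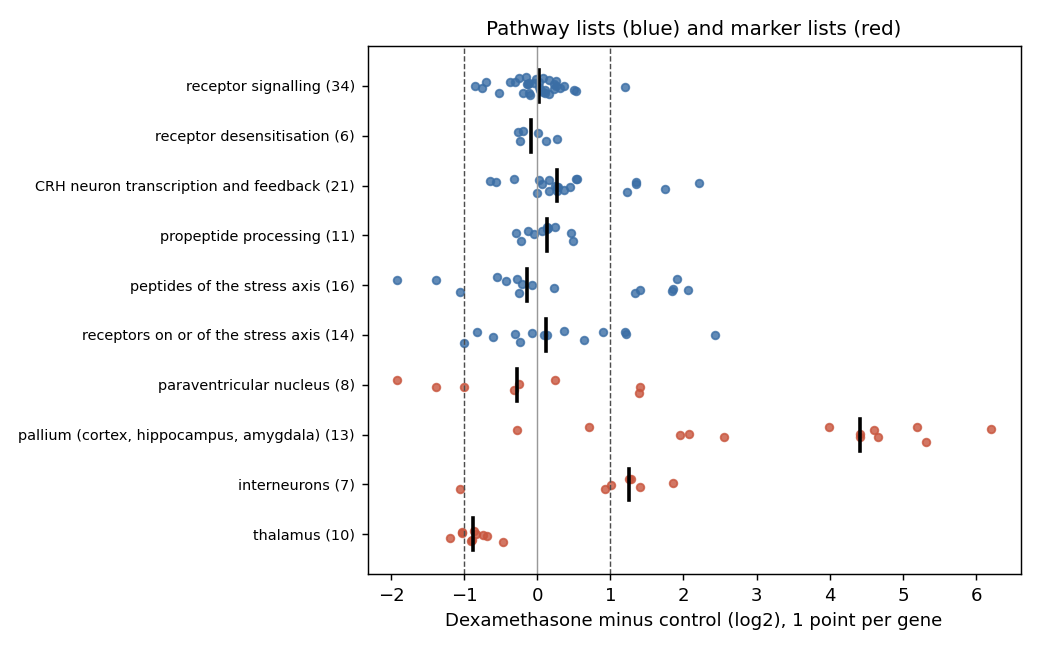
Difference (log2, dexamethasone minus control) of each measured gene in 6 pathway lists (blue) and 4 marker lists (red), with the number of genes in parentheses, black bars for medians and dashed lines at 2-fold; vertical scatter within a list has no meaning. Receptor signalling genes sit near 0 (median 0.02), pallial markers sit far to the right (median 4.41) and all thalamic markers sit left of 0 (median -0.88).

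Markers of neighbouring tissue differed strongly in the same comparison, and their part in the Ucn, Crhbp and Crh differences was not tested. Over all genes 3.37% passed 2-fold upward and 2.38% downward, the shares to set beside each count here. Of 13 measured markers of the pallium (cortex, hippocampus and amygdala) 11 passed 2-fold upward, and the list was partly drawn from genes already known to differ here. Neurod2, of excitatory cortical neurons, read 202 and 5376. The scaled signals of the list summed to 194611 for control and 231805 for dexamethasone, or 3741 and 73477 without Cck, its brightest member. Tbr1 read 3.66, not well above background, for control and 12.2 for dexamethasone. Of 7 genes on the interneuron list 5 passed 2-fold upward, among them Sst at 1.41 and Gad1 at 1.29, and 1, Vip, downward. The list had a median of 1.25 and a summed signal of 44178 and 91236. Its genes are not limited to interneurons. Npy was also on the arcuate list, Vip on the suprachiasmatic list, and both on the peptide list, so these counts are not independent. All 10 thalamic markers were below 0 (summed signal 157514 and 84634), 3 of them at least 2-fold lower by the brightest probe. The thalamic marker Tcf7l2 was at -0.91 by that probe and at -1.06 by its other. Among striatal markers 4 of 10 passed 2-fold upward (median 0.68), as did 2 of 3 lateral hypothalamic markers and both measured blood markers, Hbb (2.83-fold) and Alas2 (2.74-fold). Drd2, among those 4 striatal markers, was at 1.03 by its brightest probe and 0.515 by its other. By the brightest probe, none of the measured markers of astrocytes (6), oligodendrocytes (6), microglia (6), endothelium (5), ependyma and choroid plexus (5) or anterior pituitary (6) passed 2-fold. The astrocyte gene Gfap was at 0.73 by that probe and at 1.14, past 2-fold, by its other. Of the arcuate and ventromedial markers 1 of 6, Npy, passed it upward, and of the suprachiasmatic and preoptic markers 1 of 4 passed it upward and 2 downward.

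Markers of the labelled nucleus gave a mixed picture. Of 8 measured markers, Crh included, 2 passed 2-fold upward and 2 downward, beside 3.37% and 2.38% of all genes. Of the 8 markers 5 were below 0. Avp and Oxt, the genes of vasopressin and oxytocin, were lower (-1.91 and -1.39), while Crh and Sst were higher (1.39 and 1.41). Crh is itself a member described above, and Sst was also on the interneuron list. The summed signal of the 8 markers was 15110 for control and 23891 for dexamethasone, or 7508 and 3680 without Sst, the brightest. Trh, encoding thyrotropin-releasing hormone, was at -0.24 and Pou3f2, a transcription factor of these neurons, at 0.24. Ntng1, encoding netrin-G1, lay just inside the size rule (1434 and 757, 1.996-fold lower), and its other probe was at -1.41. Sim1, which specifies the nucleus, was dim on both arrays (14.1 and 12.0, -0.31). Otp, needed for its peptide neurons, was dim for dexamethasone (8.26) and not well above background for control (1.92). Brs3, a bombesin receptor subtype, read 9.19 for control and 2.24, not well above background, for dexamethasone.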

How the data were processed

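Agilent Feature Extraction 10.7.1.1 quantified the spots, with probe positions in rn4, per the file headers (version 9.5.1.1 per the submitters' processing notes). The deposited scanner files hold spot intensity, background-subtracted by that software within each array, with 42877 non-control spots per array. The deposited value table holds intensity with nearly the same distribution in both columns; how the authors centred it is not stated in those sources, and its differences ran the same way as those of the scanner files for every measured member.

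Spots with an outlier mark (267 and 249) were left out; none was saturated. Log2 signals were averaged per probe and scaled to the 75th percentile. A probe was well above background where most of its spots were (24139 and 23745 probes). Gene names came from RefSeq (GRCr8, names only): 18006 probes by accession, 2654 by symbol and 559 by older symbol; genes are limited to these. A bound sets the brighter array against the lowest signal well above background in the other. The software error of a difference combines the errors of both signals.

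The number of arrays limits the precision. Tools were Python 3.11.15, pandas 2.3.3, and limma 3.58.1 in R 4.3.3 for normexp (offset 50), quantile and cyclic loess normalization. The scaling step was tested on simulated data. Members and lists were chosen with earlier results of these data known. Named genes were all member probes and, per list, every gene past 2-fold up to 6 (otherwise the 4 largest) with up to 3 of the smallest difference; other genes were named after their values were seen. Alternatives were other scalings, background corrections, spot summaries, filters and size rules.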

Additional observations from a re-analysis of the deposited data

How the results depend on the processing

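The count of members at least 2-fold different was 3 of 6 under the main setting and between 2 (a 4-fold rule, chosen after seeing the data) and 4 (a 1.5-fold rule). With no filter on dim probes it was 4 of 7, 3 higher and 1 lower; the lower one was Ucn3, whose dexamethasone value is a surrogate. With normexp correction the differences were 2.86 (Ucn), 1.20 (Crhbp), 1.12 (brighter Crh probe) and 0.83 (dimmer Crh probe), and without background correction they were 2.87, 1.23, 1.16 and 0.83. Quantile normalization, scaling to detected probes alone, cyclic loess, the deposited value table, the median of spots and keeping outlier-marked spots moved these 4 probes by less than the spread of repeated spots at their brightness. Of 102 measured pathway genes 19 were past 2-fold, beside 3.37% of all genes higher and 2.38% lower by that much. Over the alternatives the count ran from 15 to 27. The 27 came from the 1.5-fold rule, for which no share of all genes is given here. Over all genes the split of called genes was 58.6% higher, and 68.6% with normexp correction, where 284 were higher and 130 lower against 478 and 338; without background correction they were 280 and 133 (67.8%), and with no filter on dim probes 870 and 732. Signals near the background limit Crhr1, Crhr2, Ucn3 and the dimmer Ucn2 probe, and background handling also lowered the folds of Ucn, Crhbp and Crh. No paired analysis was possible because there was 1 array per group and the labels give no replicate numbers.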

Other observations

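Probes within 50 kb of the members in rn4 gave values for genes beside them. Beside Ucn, Trim54, 3.19 kb away on the opposite strand, was at 0.22, Mpv17, 8.41 kb away on the same strand, at -0.52, and Gtf3c2 at -0.21. Slc30a3, which encodes the zinc transporter of synaptic vesicles, lay 47.2 kb from the Ucn probe and was also higher in the dexamethasone array (2872 and 14572, 2.27). Beside Crh, Trim55, 1.73 kb from the nearer probe and on the opposite strand, was at 0.35. Col7a1, a collagen gene 2.21 kb from the brighter Ucn2 probe and on its strand, was lower in the dexamethasone array (226 and 43.2, -2.46), while Ucn2 was at 0.14. Of 12 neighbouring probes measured on both arrays, 1 was at least 2-fold higher and 1 lower, with a median of -0.13. Over all genes the shares were 3.37% and 2.38%.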
